A study of Mus musculus with 7 samples.

Results

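The genes described here are the 9 mouse genes *Crh*, *Ucn*, *Ucn2*, *Ucn3*, *Crhr1*, *Crhr2*, *Crhbp*, *Nr3c1* and *Fkbp5*, chosen by symbol from the 52636 genes counted in each library. RNA-seq of the dorsal midbrain was compared between 3 control and 4 *Brn3b* cKO mice to ask which genes depend on *Brn3b*, a POU-domain transcription factor (gene symbol *Pou4f2*). Controls were *Brn3b flox/+* with *En1-Cre*, and cKO mice were *Brn3b flox/-* with *En1-Cre*, so that every mouse carried 1 conditional allele and the Cre driver, which is active in the midbrain, and the cKO mice also carried a constitutive null allele. Among controls, A4 was a P3 mouse and A2 and A6 were P4 mice. Among cKO mice, B7 and B9 were P2 pups and B1 and B8 P4 pups, so that P2 occurred only among cKO mice, and both sexes were used. The same study also assayed *Crh* by RT-qPCR in other mice, which makes its level in these libraries of interest.

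Corticotropin-releasing hormone (*Crh*) is the peptide that starts the hypothalamic-pituitary-adrenal (HPA) stress response, and it is also released by neurons elsewhere in the brain, where it acts as a neuromodulator. It and the related urocortins bind a pair of G protein-coupled receptors, CRHR1 and CRHR2, which mainly raise cAMP, while the secreted binding protein CRHBP holds the peptides away from the receptors. The axis ends in glucocorticoids, which bind the glucocorticoid receptor (*Nr3c1*) in target cells, and FKBP5 is a co-chaperone that lowers the affinity of that receptor and is itself induced by glucocorticoids.

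The libraries held between 23588248 and 87572085 counts on genes, and B7 and B9, both P2 cKO mice, were the deepest. These libraries also had the lowest shares of reads aligned to more than 1 place, 8.14% and 8.33% against 9.76% to 11.09% in the others, so age and depth cannot be told apart among cKO mice. *Brn3b* itself averaged 46.6 ± 0.824 CPM over controls (SD, n = 3) against 10.4 ± 0.92 CPM over cKO mice (SD, n = 4), 22.3% of the control level, and no library went against its label. CPM are counts on a gene per 1000000 counts on genes, after TMM scaling of the libraries. Dorsal midbrain markers were present in all libraries, with a summed level of 869.0 to 960.0 CPM over 6 genes in controls and 813.0 to 1320.0 CPM in cKO mice, led by *Tfap2b*. With edgeR's quasi-likelihood test, *Brn3b* was the 1 gene of 21817 tested that had a Benjamini-Hochberg adjusted p under 0.05, which is 0.00458% of them. The library of B8 stood apart from the other cKO mice. Without it, edgeR called 9867 of 21122 genes, or 46.7%.

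Levels can be set beside each other between genes only per length, here as CPM per kb of exon. *Crhr1* was the highest of the 9 genes, with a median of 11.9 CPM per kb over the 7 libraries and a range of 6.4 to 13.6. *Fkbp5* followed at 5.29, from 4.91 to 6.56, and *Nr3c1* at 4.16, from 3.75 to 4.9. The receptor and the co-chaperone of the glucocorticoid pathway were therefore both counted well, and the CRH peptide and its binding protein much less. *Crh* had a median of 0.984 CPM per kb and *Crhbp* of 0.971. *Crhr2* stood at 0.271, *Ucn2* at 0.107, *Ucn3* at 0.105 and *Ucn* at 0.0. In this order, the ranges of *Crhr1* and *Fkbp5* overlapped, with *Crhr1* higher in 6 of 7 libraries, and those of *Crh* and *Crhbp* overlapped, with *Crh* higher in 4 of 7. The ranges of *Crhr2*, *Ucn2*, *Ucn3* and *Ucn* overlapped between neighbours, and the other neighbours in the order did not overlap.

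**Figure D1:**
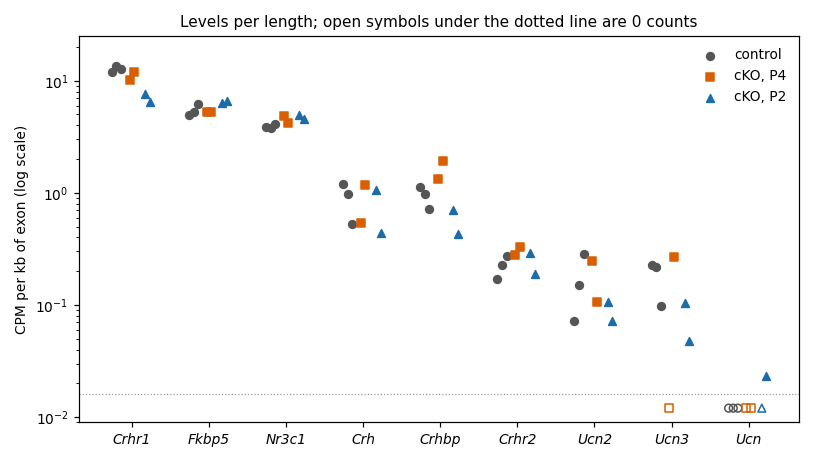
CPM per kb of exon (log scale) of the 9 genes in the 7 mice, ordered by median, with controls as circles, P4 cKO mice as squares and P2 cKO mice as triangles; open symbols under the dotted line are libraries with 0 counts. *Crhr1*, *Fkbp5* and *Nr3c1* lie between 3.75 and 13.6, and *Ucn* has 0 counts in 6 of 7 libraries.

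The most and the least abundant member also differed in the sequence before their start sites, which is shown for that reason. RefSeq sequences on GRCm38.p6 were found for 6 of the 9 genes. The window is the 250 bases before the start of transcription, 5′ to 3′ in the direction of the gene. For *Crhr1* (chr11:104132531-104132780, plus strand) the capitals mark CG pairs, and for *Ucn* (chr5:31138896-31139145, minus strand) they mark the letters TGACGTCA, a cAMP response element, and TGTTCT, which is the glucocorticoid receptor half-site AGAACA read on the other strand.
Crhr1: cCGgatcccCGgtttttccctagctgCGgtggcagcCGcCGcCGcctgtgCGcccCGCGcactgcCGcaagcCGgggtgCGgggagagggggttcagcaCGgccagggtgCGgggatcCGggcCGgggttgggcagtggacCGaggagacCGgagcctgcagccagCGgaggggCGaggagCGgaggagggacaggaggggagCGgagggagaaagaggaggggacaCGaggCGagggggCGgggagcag
Ucn: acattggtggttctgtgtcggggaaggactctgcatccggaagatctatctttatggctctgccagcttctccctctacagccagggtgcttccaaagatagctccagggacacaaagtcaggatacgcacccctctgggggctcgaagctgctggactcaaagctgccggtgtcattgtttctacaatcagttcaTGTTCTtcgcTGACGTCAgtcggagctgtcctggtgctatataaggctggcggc
The *Crhr1* window held 25 CG pairs and 74.8% G and C, against a median of 6 CG pairs and 52.4% over 32851 windows. *Fkbp5*, the next gene in level, had 23 CG pairs and 68.0%. Its window (chr17:28486150-28486399) precedes the RefSeq start and lies inside the longer GENCODE span of the gene. The *Crhbp* window (chr13:95444832-95445081) overlaps the GENCODE span of its gene in part. The 4 genes of lower level with a window had between 1 (*Ucn3*) and 9 (*Ucn*, *Crhbp*) CG pairs, with 4 in *Crhr2*. TGACGTCA, a palindrome, was found in 1.55% of all windows and among these genes only in *Ucn*. AGAACA on either strand was found in 16.1% of windows and among these genes again only in *Ucn*. The exact letters TATAAA on either strand, a form of the core of a TATA box, were found in 12.4% of windows and among these genes only in *Crhr2*. Variants of these letters were not searched for, and the *Ucn* window holds tatataag near its end. The motifs do not overlap each other in the *Ucn* window. These are matches of letters, and binding was not measured here.

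*Crh* did not differ detectably between control and cKO mice. *Crh* (ENSMUSG00000049796, GRCm38 chromosome 3, 19693401 to 19695396, minus strand, 2 exon blocks) was counted at 1.58 CPM in A2, 1.30 in A4 and 0.694 in A6. The P4 cKO mice had 0.712 CPM (B1) and 1.55 CPM (B8), and the P2 cKO mice 1.41 CPM (B7) and 0.576 CPM (B9). Each group held libraries near 1.5 CPM and libraries near 0.7 CPM or below, and the groups overlapped. The means were 1.19 ± 0.451 CPM (SD, n = 3) and 1.06 ± 0.49 CPM (SD, n = 4), a log2 fold change of -0.16 with a 95% interval of -1.17 to 0.85 (edgeR, adjusted p = 0.824). An exact two-sided permutation test of log2 CPM gave p = 0.743, where 35 splits of the mice allow no p under 0.0571. The values rested on 19 to 91 read pairs per library. The exact (Clopper-Pearson) 95% interval of counting error ran from 1.11 to 2.16 CPM in A2 and from 0.417 to 1.08 CPM in A6, so that these controls differed from each other by more than counting error. The fold change had the opposite sign, 0.03, once GC content and exon length were corrected for. Genes that mark the hypothalamus, where *Crh* is abundant, and the pituitary, led by *Pomc*, summed to 2.12 to 6.47 CPM in controls and 1.33 to 2.71 CPM in cKO mice, *Prl* was at 0 in every library, and *Avp*, *Oxt* and *Hcrt* had under 10 counts in each. Their part in the level of *Crh* was not tested.

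The urocortins were at or near the limit of detection. *Ucn* (ENSMUSG00000038676) had 1 count in B9 and 0 in the other 6 libraries. In those, 3 counts, the limit that a count of 0 allows, correspond to between 0.0465 CPM in B7 and 0.124 CPM in A2. *Ucn2* (ENSMUSG00000049699) had 2 to 9 counts per library, and its means were 0.196 ± 0.124 CPM over controls (SD, n = 3) and 0.154 ± 0.0897 CPM over cKO mice (SD, n = 4). Neither passed the filter on low counts, so neither was tested, and 7 of the 9 members were. *Ucn3* (ENSMUSG00000044988), a ligand selective for CRHR2, passed it with 4 to 13 counts in controls and 0 to 16 in cKO mice. It was at 0 counts in B1 and highest in B8, both P4 cKO mice, and its log2 fold change of -0.78 had a 95% interval of -2.70 to 1.14 (edgeR, adjusted p = 0.541). A difference in the urocortins was not detectable at this depth.

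**Figure D2:**
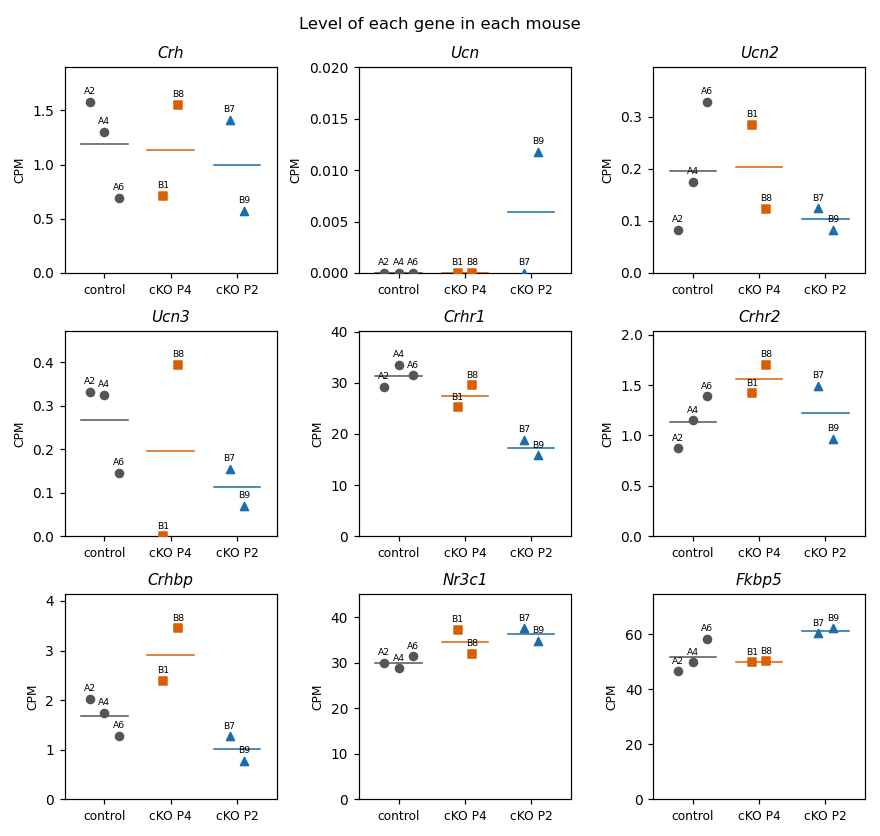
CPM of each of the 9 genes in each mouse, named beside its point, for controls, P4 cKO and P2 cKO mice; horizontal lines are group means and each panel has its own linear axis from 0. *Crhr1* lies at 29.2 to 33.5 CPM in controls, 25.2 and 29.5 CPM in P4 cKO mice and 15.8 and 18.9 CPM in P2 cKO mice, and *Nr3c1* is higher in every cKO mouse than in every control.

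*Crhr1* was the member with the smallest edgeR p, while the exact two-sided permutation p was smallest for *Nr3c1* (0.0571). *Crhr1* (ENSMUSG00000018634, chromosome 11, 104132855 to 104175523, plus strand, 13 exon blocks), the main receptor for CRH in the brain, was counted at 29.2 CPM in A2, 33.5 in A4 and 31.5 in A6. The P4 cKO mice had 25.2 CPM (B1) and 29.5 CPM (B8), and the P2 cKO mice 18.9 CPM (B7) and 15.8 CPM (B9). The 2 P2 mice had the lowest levels, B1 was below the controls, and B8 lay within their range. The mean of 22.3 ± 6.19 CPM (SD, n = 4) was 71.2% of the control mean of 31.4 ± 2.12 CPM (SD, n = 3). The log2 fold change was -0.49 (95% interval -0.97 to -0.02), with an edgeR p of 0.0433 that did not pass adjustment (adjusted p = 0.156), and the exact two-sided permutation p was 0.114. It was the 1 member of 7 with an unadjusted p under 0.05, against 6633 of 21817 genes. In counts thinned to the smallest library, every cKO mouse lay below every control for *Crhr1*, as for 7.25% of all genes, while 6.39% lay above.

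The call for *Crhr1* depended on which cKO mice entered the fit. With only the P2 cKO mice its log2 fold change was -0.88 (edgeR, adjusted p = 0.000341), in a comparison that called 46.9% of genes. With only the P4 cKO mice it was -0.19 (adjusted p = 0.672), and without B8 it was -0.67 (adjusted p = 0.00574), where 46.7% of genes were called. Most cKO mice left without B8 were P2 mice (B7 and B9). With postnatal day as a covariate over all mice, the fold change was -0.36 (edgeR, adjusted p = 0.278). Corrected for GC content and exon length, the fold change over all mice was -0.11 (95% interval -0.41 to 0.18, adjusted p = 0.598), without B8 it was -0.12 (adjusted p = 0.502), and against the P2 cKO mice it was -0.26 (adjusted p = 0.145). *Crhr1* was thus lower in cKO mice in every one of these fits, and the calls without B8 and with only the P2 cKO mice were lost with the correction.

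*Crhr2* and *Crhbp* were counted at low levels and did not differ detectably over all mice. *Crhr2* (ENSMUSG00000003476), the receptor with high affinity for the urocortins, ranged from 0.871 to 1.39 CPM in controls and from 0.964 to 1.70 CPM in cKO mice, and 3 of the 4 cKO mice lay above every control, each by less than the counting error. Its log2 fold change was 0.29 (95% interval -0.43 to 1.00, edgeR, adjusted p = 0.550), and it stayed positive in all 28 alternative fits, from 0.08 to 0.47. Leaving out 1 mouse moved it from 0.13 (without A2) to 0.45 (without A6).

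*Crhbp* (ENSMUSG00000021680, chromosome 13, 95431371 to 95444924, minus strand) was counted at 2.03 CPM in A2, 1.75 in A4 and 1.28 in A6. It was counted at 2.39 CPM in B1 and 3.45 in B8, the P4 cKO mice, and at 1.27 in B7 and 0.776 in B9, the P2 cKO mice. Both P4 cKO mice lay above every control and both P2 cKO mice below, although B1 was above A2, and B7 below A6, by less than the counting error. The mean of 1.97 ± 1.19 CPM (SD, n = 4) was therefore close to the control mean of 1.69 ± 0.381 CPM (SD, n = 3), with a log2 fold change of 0.21 (95% interval -0.87 to 1.29, edgeR, adjusted p = 0.785). With only the P4 cKO mice the log2 fold change was 0.80 (adjusted p = 0.667), and with only the P2 cKO mice -0.74 (adjusted p = 0.128). Without B8 it was -0.24 (adjusted p = 0.661).

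*Nr3c1* was higher in every cKO mouse than in every control, by a small amount. *Nr3c1* (ENSMUSG00000024431, chromosome 18, 39410545 to 39519421, minus strand, 13 exon blocks), the glucocorticoid receptor, was counted at 30.0 CPM in A2, 28.8 in A4 and 31.4 in A6. Among cKO mice, B1 had 37.3 CPM and B8 32.0 CPM at P4, while B7 had 37.6 CPM and B9 34.9 CPM at P2. The groups did not overlap, but B8 (exact 95% interval of counting error 30.2 to 33.7 CPM) lay above A6 (29.3 to 33.5 CPM) by less than the counting error. The means were 30.1 ± 1.27 CPM (SD, n = 3) and 35.4 ± 2.62 CPM (SD, n = 4). Of all genes tested, 6.03% were higher in every cKO mouse than in every control, and 8.01% were lower. The exact two-sided permutation p was 0.0571, the smallest that 35 splits allow. The log2 fold change of 0.24 (95% interval -0.05 to 0.52) did not pass the test (edgeR, adjusted p = 0.221). Its sign depended on the scaling: after the correction for GC content and exon length it was -0.14 (adjusted p = 0.512), and with only the P2 cKO mice and that correction it was -0.34 (adjusted p = 0.0337), where 33.9% of genes were called. Without B8 and with no correction it was 0.28 (adjusted p = 0.0538).

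*Fkbp5* did not differ detectably between the groups. *Fkbp5* (ENSMUSG00000024222, chromosome 17, 28399094 to 28517527, minus strand, 21 exon blocks) was counted at 46.5 CPM in A2, 49.8 in A4 and 58.3 in A6. Among cKO mice, B1 had 49.8 CPM and B8 50.1 CPM at P4, while B7 had 60.3 CPM and B9 62.1 CPM at P2. Only the P2 cKO mice lay above all controls, and the P4 cKO mice lay within the control range. The means were 51.6 ± 6.09 CPM (SD, n = 3) and 55.6 ± 6.53 CPM (SD, n = 4), with a log2 fold change of 0.11 (95% interval -0.22 to 0.43, edgeR, adjusted p = 0.621), and of -0.18 after the correction for GC content and exon length. Its gene spans 4 other annotated genes, none of which shares exon bases with it.

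**Figure D3:**
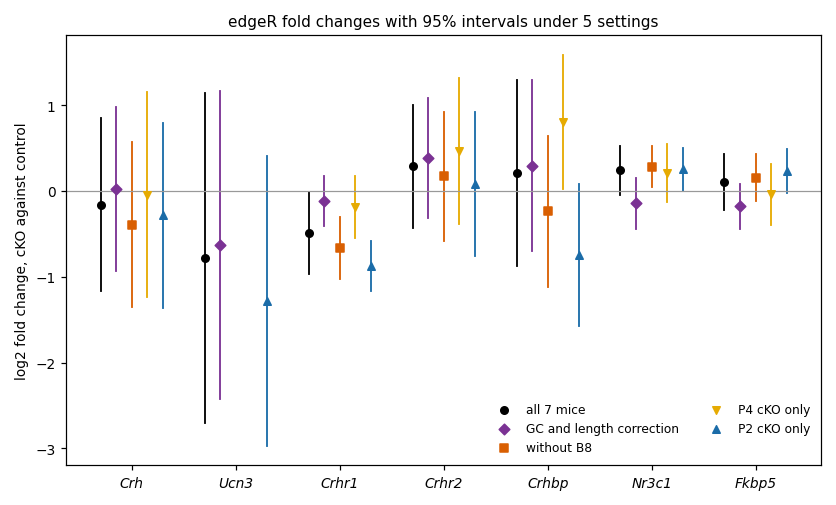
edgeR log2 fold change of cKO against control mice for the 7 members tested, with 95% intervals as vertical lines, over all 7 mice, with GC and length correction, without B8, and with the P4 or the P2 cKO mice alone; *Ucn3* did not pass the filter without B8 or with the P4 cKO mice alone. The *Crhr1* interval lies below 0 over all mice, without B8 and with the P2 cKO mice, and spans 0 with the correction and with the P4 cKO mice.

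Across all 9 genes, edgeR thus called 0 of the 7 tested, where 0.00458% of all genes were called. DESeq2 called 0 of the 6 members to which it gave an adjusted p, where it called 10.4% of genes. limma-voom with sample quality weights called *Crhr1* (log2 fold change -0.67, adjusted p = 0.0028) and *Nr3c1* (0.26, adjusted p = 0.0477), where it called 48.5% of genes. It gave B8 the lowest weight of the 7 libraries, 0.167.

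Transcript GC content varied with the fold change over all genes, and *Nr3c1* and *Crhr1* lay toward the ends of that trend. In the quintile of genes with the lowest GC content (27.6 to 42.9%) the median log2 fold change was 0.23, and in the quintile with the highest (54.9 to 86.5%) it was -0.32. *Nr3c1*, at 42.2%, is in the lowest quintile and *Crhr1*, at 58.2%, in the highest. *Crhr2*, at 55.3%, is also in the highest quintile and had a fold change of 0.29, against the trend. After the correction the 5 medians lay between -0.03 and 0.00. The part of GC content in the fold changes of *Nr3c1* and *Crhr1* cannot be told apart from the groups in these libraries.

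**Figure D4:**
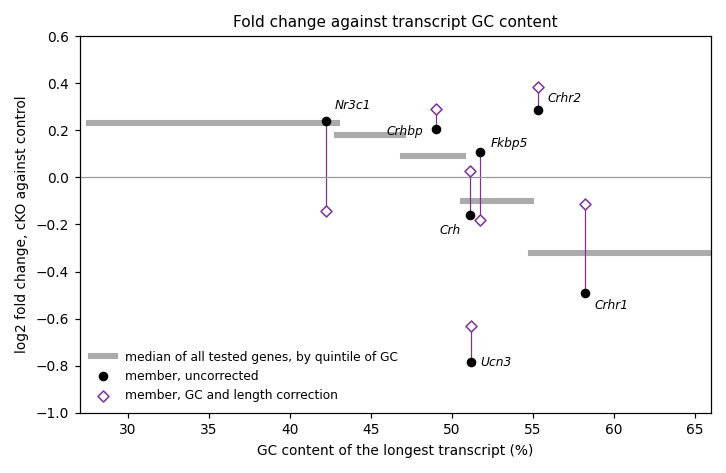
edgeR log2 fold change of cKO against control mice plotted against the GC content (%) of the longest transcript; grey bars are medians of all tested genes by quintile of GC content, drawn up to 66%, black points are the members and open diamonds the same members after the GC and length correction. *Nr3c1* moves from 0.24 to -0.14 and *Crhr1* from -0.49 to -0.11.

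The P2 and P4 cKO mice were also compared with each other, since genotype is the same in both. *Crhr1* and *Crhbp* had the smallest p. *Crhr1* averaged 17.3 CPM at P2 and 27.4 CPM at P4 (n = 2 each), a log2 difference of -0.66 (95% interval -1.04 to -0.28), and *Crhbp* averaged 1.02 and 2.92 CPM, a log2 difference of -1.52 (95% interval -2.41 to -0.63). Neither passed the edgeR test (adjusted p = 0.101 for each), which called 0.0% of 21817 genes, while 5459 genes had an unadjusted p under 0.05. DESeq2 called both (adjusted p = 0.0221 for *Crhr1* and 0.0143 for *Crhbp*), where it called 13.2% of genes. With the GC and length correction, *Crhbp* kept a log2 difference of -1.41 (edgeR, adjusted p = 0.131) and *Crhr1* one of -0.24 (adjusted p = 0.417). Leaving out B1, B7, B8 or B9 leaves 1 mouse in a cKO age group, which is assumed to vary like the other groups. The log2 difference was then between -0.80 and -0.53 for *Crhr1* and between -1.91 and -1.20 for *Crhbp*. With all mice and counts thinned to the depth of the smallest library, the difference of *Crhr1* was -0.66 (edgeR, adjusted p = 0.0984). That of *Crhbp* was -1.20 (adjusted p = 0.198). *Crh*, *Crhr2*, *Nr3c1* and *Fkbp5* differed by between -0.36 and 0.29 on the log2 scale in the uncorrected edgeR fit, and *Ucn3*, on 0 to 16 counts, by -0.92 (95% interval -3.41 to 1.56, adjusted p = 0.629).

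The genes whose levels moved most like a member were found among 15513 tested protein-coding genes, by the root mean square difference of centred log2 CPM over the 7 libraries. For *Crhr1*, whose own root mean square deviation was 0.377, these were *Pigq* (0.0424), *Ankrd29* (0.0453) and *Gpr153* (0.0468). *Pigq* had 113.0 to 122.0 CPM in controls, 95.9 and 115.0 CPM in the P4 cKO mice and 73.8 and 61.3 CPM in the P2 cKO mice, so that, as in *Crhr1*, the P2 cKO mice were lowest and B1 next. For *Nr3c1*, whose own deviation was 0.14, they were *Ptprf* (0.0299), *Clpb* (0.0325) and *Rab11fip3* (0.0361). For *Crh*, whose own deviation was 0.554, they were *Agtr1b* (0.235), *Rsph1* (0.251) and *Krt87* (0.251), each much less alike. *Agtr1b* (0.188 to 0.517 CPM) and *Krt87* (0.214 to 0.705 CPM) were counted at low levels. The closest of 15513 genes over 7 libraries can match in part by noise, which was not tested.

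Of 16 other genes of the HPA axis, 13 were tested and edgeR called 0 of them, where 0.00458% of all genes were called. Their median log2 fold change was 0.03, against 0.00 over all genes. With the GC and length correction the median was -0.12. An unadjusted p under 0.05 was reached by 4 of the 13, against 30.4% of all genes. The mineralocorticoid receptor *Nr3c2*, the other receptor for corticosterone, was counted at 7.18, 6.79 and 8.40 CPM in A2, A4 and A6, and at 13.2 and 8.89 CPM in B1 and B8 and 11.1 and 12.8 CPM in B7 and B9. As with *Nr3c1*, every cKO mouse lay above every control and B8 was the lowest of them. Its log2 fold change was 0.62 (edgeR, adjusted p = 0.138), 0.72 without B8 (adjusted p = 0.00331) and 0.36 with the GC and length correction. *Pomc*, which encodes the precursor of adrenocorticotropic hormone, was counted at 1.41, 5.50 and 2.74 CPM in the controls, at 1.35 and 1.45 CPM in B1 and B8, and at 0.574 and 0.411 CPM in B7 and B9. Its log2 fold change was -1.81 (edgeR, adjusted p = 0.138) and -2.16 without B8 (adjusted p = 0.00485). The control mean rested most on A4. DESeq2 (10.4% of all genes called) called *Nr3c2* as higher and *Pomc* as lower, and without B8 (46.7%) edgeR also called the PACAP receptor *Adcyap1r1* as higher and the neuropeptide-processing enzyme *Cpe* as lower. *Avp* and *Oxt* had at most 5 and 4 counts in any library and were not tested. *Hsd11b1*, which regenerates active glucocorticoid, had 2.53 ± 0.657 CPM over controls (SD, n = 3) and 2.35 ± 1.55 CPM over cKO mice (SD, n = 4) (log2 fold change -0.11, edgeR, adjusted p = 0.887).

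The chaperones and cofactors that act on the glucocorticoid receptor were all expressed, and edgeR called 0 of 18 (0.00458% of all genes). An unadjusted p under 0.05 was reached by 8 (30.4% of all genes), and the median log2 fold change was 0.13 (0.03 with the correction). DESeq2, which called 10.4% of all genes, called 2 of them as higher, the coactivators *Ncoa2* and *Ep300*. Without B8, where 46.7% of all genes were called, edgeR called 7 as higher and 5 as lower, the latter being the chaperone *Hsp90aa1* and the co-chaperones *Ptges3*, *Fkbp4*, *Dnajb1* and *Bag1*. *Fkbp4*, the co-chaperone that exchanges with FKBP5 on the receptor, was counted at 191.0 ± 14.5 CPM over controls (SD, n = 3) and 159.0 ± 12.8 CPM over cKO mice (SD, n = 4), a log2 fold change of -0.27 (edgeR, adjusted p = 0.170) that was 0.02 with the GC and length correction. *Hsp90ab1*, the most abundant gene of the list, was counted at 1200.0 ± 94.3 and 1360.0 ± 246.0 CPM (log2 fold change 0.18, adjusted p = 0.434).

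Genes that glucocorticoids induce gave 0 calls of 20 with edgeR (0.00458% of all genes), with 6 at an unadjusted p under 0.05 (30.4% of all genes). Their median log2 fold change was -0.21 (-0.09 with the correction). Of the 20, DESeq2 (10.4% of all genes called) called *Zbtb16*, a transcription factor, as higher and *Mt2*, a metallothionein, as lower. Without B8 (46.7% of all genes called), edgeR called 2 as higher, *Zbtb16* and the kinase gene *Pdk4*, and 8 as lower. *Zbtb16* had a log2 fold change of 1.15 over all mice and *Mt2* one of -0.85 (edgeR, adjusted p = 0.138 for each). With the GC and length correction these were 1.16 and -0.43. *Sgk1*, a kinase, was counted at 33.2 ± 4.06 CPM over controls (SD, n = 3) and 33.3 ± 1.85 CPM over cKO mice (SD, n = 4). *Tsc22d3*, which encodes the leucine zipper protein GILZ, was counted at 52.3 ± 6.47 and 47.3 ± 4.2 CPM. *Per1*, a clock gene with a glucocorticoid response element, was counted at 31.3 ± 3.2 and 29.3 ± 3.6 CPM. Their log2 fold changes were 0.00, -0.15 and -0.10 (edgeR, adjusted p = 0.998, 0.480 and 0.673).

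In the cAMP pathway that the CRH receptors drive, edgeR called 0 of 25 genes (0.00458% of all genes), with 7 at an unadjusted p under 0.05 (30.4% of all genes). Their median log2 fold change was 0.17 (-0.02 with the correction). DESeq2, which called 10.4% of all genes, called 2 as higher, the adenylyl cyclase *Adcy9* and the phosphodiesterase *Pde4d*. Without B8 (46.7% of all genes called), edgeR called 11 as higher and 3 as lower, the latter being the protein kinase A subunits *Prkaca* and *Prkar1b* and the arrestin *Arrb2*. *Gnas*, the stimulatory G protein that couples the receptors to adenylyl cyclase, was counted at 254.0 ± 15.5 CPM over controls (SD, n = 3) and 291.0 ± 21.7 CPM over cKO mice (SD, n = 4) (log2 fold change 0.20, edgeR, adjusted p = 0.262). *Creb1*, the factor that binds the cAMP response element, was counted at 58.8 ± 0.787 and 84.2 ± 22.3 CPM. Its log2 fold change was 0.52 (adjusted p = 0.142), 0.66 without B8 (adjusted p = 0.00106) and -0.13 with the correction.

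Activity-regulated genes, which neurons induce when they fire and which stress also raises, gave 0 calls of 10 with edgeR (0.00458% of all genes) and 0 with an unadjusted p under 0.05 (30.4%), and DESeq2 also called 0 (10.4%). Without B8 (46.7% of all genes called), edgeR called 4 as lower (*Fos*, *Npas4*, *Nr4a1* and *Ier2*). The median log2 fold change was -0.28, and 0.05 with the correction. Their median log2 CPM relative to the control mean was lowest in the P2 cKO mice, at -0.90 in B7 and -0.72 in B9, and highest in A6 (0.48) and B8 (0.43). The cKO libraries therefore lay on both sides of 0 in this list, while the controls were measured against their own mean.

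**Figure D5:**
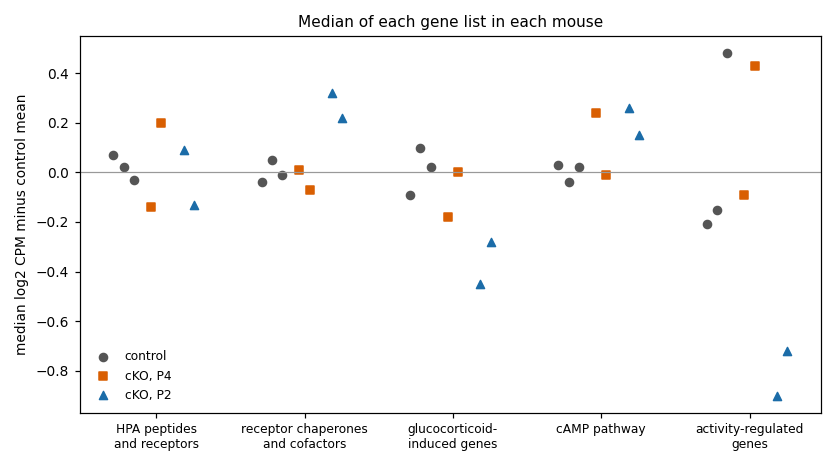
Median over the tested genes of each list of log2 CPM minus the mean of the 3 controls, for each mouse, with controls as circles, P4 cKO mice as squares and P2 cKO mice as triangles. The P2 cKO mice lie at -0.28 and -0.45 for glucocorticoid-induced genes and at -0.72 and -0.90 for activity-regulated genes, while B8 lies at 0.00 and 0.43.

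Markers of other cells gave the background of these comparisons. In bulk tissue, fewer cells of a type and less RNA per cell cannot be told apart. Neuronal markers summed to 3160.0 to 3420.0 CPM in controls and 2830.0 to 3060.0 CPM in cKO mice, without overlap, led by *Stmn2*, although 3 of the 6 genes had fold changes above 0 and 3 below, with a median log2 fold change of -0.02 that was -0.29 with the GC and length correction. Pericyte and smooth muscle markers summed to 86.3 to 106.0 and 120.0 to 148.0 CPM, led by *Rgs5*, with 5 of 5 genes above 0 and a median log2 fold change of 0.43 that was 0.47 with the correction. Astrocyte markers summed to 632.0 to 639.0 and 659.0 to 797.0 CPM, also without overlap, led by *Slc1a3*, with 3 of 5 genes above 0 and a median log2 fold change of 0.23 that was -0.16 with the GC and length correction. For the oligodendrocyte lineage (led by *Olig1*), microglia (*Csf1r*), endothelium (*Cldn5*), meninges and fibroblasts (*Col1a2*), dividing cells (*Top2a*), red blood cells (*Hbb-bs*), cortex and hippocampus (*Neurod6*), cerebellum (*Pax6*), choroid plexus (*Kl*), dopaminergic (*Slc18a2*) and oculomotor and cholinergic (*Slc5a7*) markers, the sums of the groups overlapped. Single libraries stood apart in some of them. B8 had the highest dopaminergic sum (57.8 CPM, against 18.8 to 34.4 CPM in the others). Most of it came from *Slc18a2* (27.3 CPM) and *Ddc* (23.9 CPM), while *Th* was at 4.83 CPM against 4.31 CPM in A2. B8 also had the highest oculomotor and cholinergic sum (8.57 CPM, against at most 4.87 CPM). That sum rested on *Slc5a7* (4.83 CPM) and *Slc18a3* (3.05 CPM), while *Chat* (0.246 CPM) was no higher than in A2 (0.249 CPM). Red blood cell markers summed to 61.6 and 57.7 CPM in the P2 cKO mice B7 and B9, 177.0 and 179.0 CPM in the P4 cKO mice B1 and B8, and 496.0 CPM in A4. A2 and A6 had 156.0 and 132.0 CPM. Of these markers 5 of 5 had fold changes below 0, with a median log2 fold change of -1.13 that was -0.95 with the correction, and edgeR called 0. Sums that overlap thus do not mean that the genes of a list did not shift. Of the markers of the cerebellum, *Gabra6* and *Atoh1* had under 10 counts in every library, as did *Phox2a* among oculomotor markers. The part of cell composition in the values of the 9 genes was not tested.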

How the data were processed

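For strand-specific polyA libraries of 7 dorsal midbrains, the authors trimmed the reads, used TopHat2 with Bowtie 2 for alignment (GRCm38.p5) and HTSeq for counting (GENCODE vM15), whose strand and overlap options are not given in the sources used here. Each deposited file gives raw, unnormalized counts for 52636 genes. Entries that name no gene (30.98% to 38.18% of counted read pairs) were left out. Symbols, positions, exon lengths and transcript GC content came from GENCODE vM21 on the same build, to which 52403 identifiers matched. Promoter windows came from RefSeq.

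The analysis, in R 4.3.3, was edgeR 4.0.16 (filterByExpr with minimum count 10 and total 15, TMM, glmQLFit and glmQLFTest, with no term besides condition) with Benjamini-Hochberg adjustment over all genes tested, with calls at an adjusted p under 0.05. Ages were compared in a fit with controls, P2 cKO and P4 cKO mice as 3 groups. Log2 CPM used a prior count of 2. Single genes were compared by exact permutation (scipy 1.17.1) over 35 splits. DESeq2 1.42.0 was run without a prefilter, and its adjusted p values given as NA were left as NA, as for *Ucn*, *Ucn2* and *Ucn3*. Other alternatives were limma-voom (limma 3.58.1) with quality weights, RLE factors, other filters, postnatal day as a covariate, subsets by age, thinned counts, leaving out each mouse, and a smooth per-library correction for GC content and exon length (mgcv 1.9.3). The code of the fits was tested on simulated counts with the same dispersion for every gene and no library set apart, a simpler setting than these libraries. Intervals and limits for single libraries cover counting error only.

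The 9 genes and all gene lists were chosen with earlier results of these data known. The genes named with values are the members, *Pou4f2*, 12 genes fixed from the lists, the 3 genes whose levels moved most like *Crh*, *Crhr1* and *Nr3c1*, and the gene of highest mean level in each marker list; the genes listed as called by DESeq2 or without B8 were named after their values were seen. Replicates within groups differed by more than sampling noise, so each library was 1 replicate.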

Additional observations from a re-analysis of the deposited data

Results flagged for a closer look

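*Crhbp* and *Fkbp5* moved in opposite directions from the control mean in the P2 and the P4 cKO mice. For *Crhbp*, both P2 cKO mice lay below and both P4 cKO mice above the control mean, and the log2 difference of P2 from P4 cKO mice was -1.52 (edgeR, adjusted p = 0.101). For *Fkbp5*, both P2 cKO mice lay above and both P4 cKO mice below the control mean, and the log2 difference was 0.29 (edgeR, adjusted p = 0.255), which became -0.01 with the GC and length correction. Neither difference passed the edgeR test, and DESeq2 called that of *Crhbp* but not that of *Fkbp5* (adjusted p = 0.236). No cKO mouse stood apart from the other 3 in any of the 7 members examined by Dixon's test.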

How the results depend on the processing

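No paired analysis was possible because the groups share no replicate numbers. The 0 members called by edgeR became 2 of 7 with limma-voom, where 48.5% of all genes were called. Against the P2 cKO mice alone the count became 1 of 7 (*Crhr1*), where 46.9% of all genes were called. With the GC and length correction it was also 1 of 7 there (*Nr3c1*), where 33.9% were called, in an alternative chosen after seeing the data. Leaving out 1 mouse gave 0 to 1 members with edgeR and with DESeq2, the 1 being *Crhr1* without B8. Without B8, edgeR called 46.7% of all genes and DESeq2 39.9%. In the age comparison the 0 members became 2 with DESeq2, where 13.2% of genes were called. Leaving out 1 cKO mouse there leaves 1 mouse at P2 or at P4, which is assumed to vary like the other groups. The log2 difference was then between -0.80 and -0.53 for *Crhr1* and between -1.91 and -1.20 for *Crhbp*. The count of members whose groups do not overlap rose from 1 to 2 in thinned counts, where *Crhr1* joined *Nr3c1*; over all genes 6.03% were higher and 8.01% lower without overlap before thinning, and 6.39% and 7.25% after it. The 1 gene called over all genes became 1994 with DESeq2, 1069 with DESeq2 and the GC and length correction, 10583 with limma-voom, 10425 against the P2 cKO mice and 0 in P4 mice only, where 245 genes had an unadjusted p under 0.05. Leaving out 1 mouse gave 1 to 9867 genes with edgeR and, with DESeq2, 579 without A2, 12 without A4, 206 without A6, 135 without B1, 68 without B7, 9951 without B8 and 56 without B9. With each mouse left out in turn, edgeR gave *Crh* -0.43 to 0.08, *Ucn3* -1.07 to -0.45, *Crhr1* -0.67 to -0.35, *Crhr2* 0.13 to 0.45, *Crhbp* -0.24 to 0.49, *Nr3c1* 0.21 to 0.28 and *Fkbp5* 0.03 to 0.20 on the log2 scale.

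Reversed signs, on the log2 scale, were as follows. With the GC and length correction, by edgeR and by DESeq2, *Crh* was at 0.03, *Nr3c1* at -0.14 and *Fkbp5* at -0.18. In P4 mice only, *Crh* was at 0.02 and *Fkbp5* at -0.07, and against the P4 cKO mice *Fkbp5* was at -0.04. *Crh* was between 0.06 and 0.08 without A2 (0.08) or B9 (0.07 by edgeR). *Crhbp* was at -0.33 with limma-voom, -0.74 against the P2 cKO mice, and -0.24 (edgeR) or -0.22 (DESeq2) without B8. With the correction, *Crhbp*, *Nr3c1* and *Fkbp5* were at -0.08, -0.24 and -0.22 without B8, and *Crh*, *Crhbp*, *Nr3c1* and *Fkbp5* at 0.01, -0.58, -0.34 and -0.20 against the P2 cKO mice. *Crhr1*, *Crhr2* and *Ucn3* kept their sign in all of their 28, 28 and 14 alternatives. The cause of these changes was not tested. Depth limits the urocortins, which rest on at most 16 read pairs per library. *Crh* and *Crhbp* rest on more, and each varied between some mice of a group by more than counting error.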
